A study of Mus musculus with 58 samples.

Results

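Cst7, Cst3 and Cstb encode cystatins, and they were picked by gene symbol from 3 tables of raw RNA-seq counts of sorted mouse microglia. They are 3 of the 24940 genes listed in the table of the age series, 3 of 10277 in the table of the wild-type antisense experiment and 3 of 10589 in the table of the SgshKO antisense experiment, and all 3 passed the filter on low counts in each table. The choice was made with the response of Cst7 to the antisense oligonucleotides against Mitf and Tfe3 already known. Those contrasts chose the genes, so their values are given as a description with no test.

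The study measured polyA RNA of microglia, the resident macrophages of the brain, from C57BL/6 mice that were wild type (WT) or SgshKO. The 58 libraries fall into 13 groups. The age series holds 22 untreated libraries: WT at 3 weeks (n = 3), 4 months (n = 2) and 8 months (n = 4), and SgshKO at 3 weeks (n = 4), 4 months (n = 2) and 8 months (n = 7). In the wild-type antisense experiment 4 libraries each came from WT mice given PBS, an oligonucleotide labelled ntc, or an oligonucleotide (ASO) against Mitf, Tfeb or Tfe3. In the SgshKO experiment 8 libraries came from SgshKO mice given ntc and 8 from SgshKO mice given the combination of Mitf and Tfe3 ASOs. Every ASO was given once into a brain ventricle, and microglia were taken 14 days later. In all 13 groups the cells were singlets from the forebrain, gated on CD11b and CX3CR1 with low CD45. The SgshKO allele, the sex of the mice, the age of the injected mice, and whether a library came from a single mouse are not given in the sources used here. The p-values therefore measure the spread between these libraries, which may be partly technical.

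Cystatins are inhibitors of papain-like cysteine proteases, the enzyme class of most lysosomal cathepsins. Cystatin F, the product of Cst7, is made mainly by immune cells as an inactive dimer, reaches endosomes and lysosomes, and inhibits cathepsin C there once it has been converted to a monomer. Its transcript is a marker of disease-associated microglia, a state described around amyloid plaques and in other brain diseases. Cystatin C, the product of Cst3, is secreted and is among the most abundant transcripts of microglia. Cystatin B, the product of Cstb, works in the cytosol and nucleus, and its loss causes a progressive myoclonus epilepsy. Sgsh encodes the lysosomal sulfamidase that degrades heparan sulfate, and its deficiency causes Sanfilippo syndrome type A, a lysosomal storage disease. MITF, TFEB and TFE3 are basic helix-loop-helix factors that bind E-box sequences and control many lysosomal genes.

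In the coordinates of the deposited tables, which equal those of RefSeq on GRCm38.p6 (mm10), Cst7 spans chr2:150570415-150578944 on the plus strand. Cst3 spans chr2:148871722-148875512 on the minus strand, and Cstb spans chr10:78425670-78427622 on the plus strand. None of the 3 overlaps another RefSeq gene. The 250 bases before the annotated start of Cst7 and of Cst3 are shown because the ASOs were aimed at factors that bind E-boxes. The RefSeq table used here has an entry for 2 of the 3 genes. Capitals mark the nearest match to the palindrome TCACGTGA, which holds the E-box core CACGTG.
Cst7, chr2:150570165-150570414, plus strand: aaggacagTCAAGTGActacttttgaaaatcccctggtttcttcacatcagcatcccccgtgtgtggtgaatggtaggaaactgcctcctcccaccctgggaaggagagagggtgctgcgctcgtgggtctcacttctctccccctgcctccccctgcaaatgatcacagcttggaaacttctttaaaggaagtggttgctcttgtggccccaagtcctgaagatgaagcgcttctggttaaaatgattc
Cst3, chr2:148875513-148875762, minus strand: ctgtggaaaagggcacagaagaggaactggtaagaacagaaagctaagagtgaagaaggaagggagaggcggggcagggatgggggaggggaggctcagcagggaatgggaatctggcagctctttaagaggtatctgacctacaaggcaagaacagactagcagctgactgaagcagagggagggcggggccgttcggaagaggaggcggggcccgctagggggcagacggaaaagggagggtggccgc
On both strands, neither window holds the E-box core CACGTG, which 6.02% of the 32851 RefSeq windows of this length hold. Neither holds the longer TCACGTG, which contains that core and occurs in 3.13% of windows. The M-box letters TCATGTG, in 3.25% of windows, and the full PU.1 motif GAGGAAGT, in 2.44%, are also in neither as exact matches. Shorter or inexact forms of the PU.1 motif were not searched for. With 1 mismatch allowed, TCACGTGA occurred once in the Cst7 window as TCAAGTGA (C4A, positions counted from the 5′ end of the palindrome), with its first base 242 bases before the start, and not in the Cst3 window. Such a match was found in 7.23% of all windows, and it was looked for after the sequence had been seen. The absence of these letters says only that they are not in these windows.

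The libraries of the age series summed to 8191508 to 27106584 counts. Those of the WT ASO table summed to 14372015 to 30378870, and those of the SgshKO ASO table to 12517838 to 30431437. All levels below are CPM, counts scaled to library size with TMM factors, unless TPM is named, and log2 fold changes with their standard errors and adjusted p-values are from edgeR's quasi-likelihood test with Benjamini-Hochberg adjustment over all genes of a table. Each ASO lowered its target: Mitf fell from 43.7 to 1.58 CPM, Tfeb from 54.9 to 5.80 and Tfe3 from 198 to 38.1 in WT, and the combination lowered Mitf from 72.4 to 15.3 and Tfe3 from 170 to 80.4 in SgshKO. Sgsh itself was still counted in SgshKO libraries, at 26.6 CPM against 44.4 in WT at 8 months (log2 fold change -0.74 ± 0.16 SE, adjusted p = 0.000583), so without the allele its count does not check the genotype labels. The 13 homeostatic microglial markers, such as P2ry12 and Tmem119, summed to between 35487 and 69147 CPM in every age series library. The 10 neutrophil markers summed to at most 7.33 CPM in WT and 28.9 in SgshKO at 3 weeks, but to 2806 and 13923 in SgshKO at 4 months and to between 405 and 5462 at 8 months. Of these markers, Elane, Ly6g, Mpo and Retnlg were at 0 in WT at 4 and 8 months and had counts in SgshKO at both ages. The 7 monocyte markers summed to at most 14.1 CPM in WT, to 329 and 1420.5 in SgshKO at 4 months and to between 51.3 and 472 at 8 months. The sums of 7 border macrophage markers averaged 65.4 CPM in WT and 98.0 in SgshKO at 3 weeks. They averaged 9.83 and 94.5 at 4 months and 21.6 and 76.9 at 8 months. At 8 months endothelial marker sums averaged 333 CPM in WT and 458 in SgshKO, and astrocyte marker sums 354 and 246. In RNA of sorted cells, a change in the share of cells of a type and a change in RNA per cell cannot be told apart.

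Cst7 was low in WT microglia and rose steeply in SgshKO microglia at each age. In WT it was at 7.50, 5.96 and 8.49 CPM at 3 weeks, 3.43 and 4.59 at 4 months, and 4.51, 3.20, 3.77 and 4.77 at 8 months. In SgshKO it was at 20.7, 25.4, 30.2 and 24.3 CPM at 3 weeks, at 203 and 167 at 4 months, and between 168 and 228 with a median of 185 at 8 months. Every SgshKO library lay above every WT library of any age, and the 3-week SgshKO libraries lay below all older ones. These CPM rest on 29 to 152 counts per WT library and 312 to 4846 per SgshKO library.

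Between genotypes Cst7 went from 7.32 ± 1.28 (SD, n = 3) to 25.1 ± 3.94 CPM (n = 4) at 3 weeks, a 3.41-fold rise (log2 1.77 ± 0.16 SE, adjusted p = 3.63e-08), in a comparison in which 9.03% of 14309 tested genes were called. At 4 months it went from 4.01 ± 0.82 (n = 2) to 185 ± 26.0 (n = 2), 45.1-fold (log2 5.49 ± 0.23, adjusted p = 4.31e-14), with 19.5% of genes called. At 8 months it went from 4.06 ± 0.71 (n = 4) to 195 ± 24.7 (n = 7), 48.7-fold (log2 5.61 ± 0.16, adjusted p = 2.47e-18), with 40.5% of genes called. Ordered by fold increase over all 14309 genes, Cst7 stood at place 215, 202 and 172 at the 3 ages.

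The genotype effect itself grew with age. It was larger by 3.72 ± 0.28 on the log2 scale at 4 months than at 3 weeks (adjusted p = 1.63e-08 for the interaction, 2.52% of genes called) and by 3.84 ± 0.21 at 8 months than at 3 weeks (adjusted p = 2.67e-11, 9.25% called). From 4 to 8 months it moved by 0.11 ± 0.27 (adjusted p = 0.927, 0.391% called). The interactions share the same groups, as do the comparisons between ages.

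The course with age ran in opposite directions in the genotypes. In WT, Cst7 fell by 0.84 ± 0.23 on the log2 scale from 3 weeks to 4 months (adjusted p = 0.0328, 5.21% of genes called) and by 0.88 ± 0.18 from 3 weeks to 8 months (adjusted p = 0.00212, 7.65% called), and the groups did not overlap. In SgshKO it rose by 2.89 ± 0.15 to 4 months (adjusted p = 8.46e-12, 32.7% called) and by 2.96 ± 0.13 to 8 months (adjusted p = 6.84e-14, 30.6% called). The WT fall to 4 months rests on few counts, and it was no longer called without WT 3-week replicate 1 or 3 or without either 4-month library (log2 between -1.09 and -0.67 when any 1 library was left out). When the model held only the 2 groups compared, neither WT fall was called (log2 -0.83 in both, adjusted p = 0.0729 and 0.0639).

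Neutrophil marker sums rose in SgshKO at 4 and 8 months, ages at which Cst7 also rose. Of these markers 9 of 10 were called higher at 4 months, 10 of 10 at 8 months and 0 of 10 at 3 weeks. The shares of all genes called were 19.5%, 40.5% and 9.03%. At 3 weeks Elane, Ly6g and Retnlg were at 0 in SgshKO. The part of neutrophils in the Cst7 result was not tested. At 4 months the library with the larger sum, 13923 CPM, had Cst7 at 167 CPM and the one with 2806 had it at 203. SgshKO 8-month replicates 1 and 3 had the largest sums at that age and were picked after the values had been seen. Leaving them out gave Cst7 a log2 fold change of 5.66 (adjusted p = 2.33e-17). The 8-month SgshKO libraries kept still held at least 405 CPM of these markers, against at most 3.26 in WT at 8 months. The part of neutrophils was therefore not tested by this either.

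**Figure D1:**
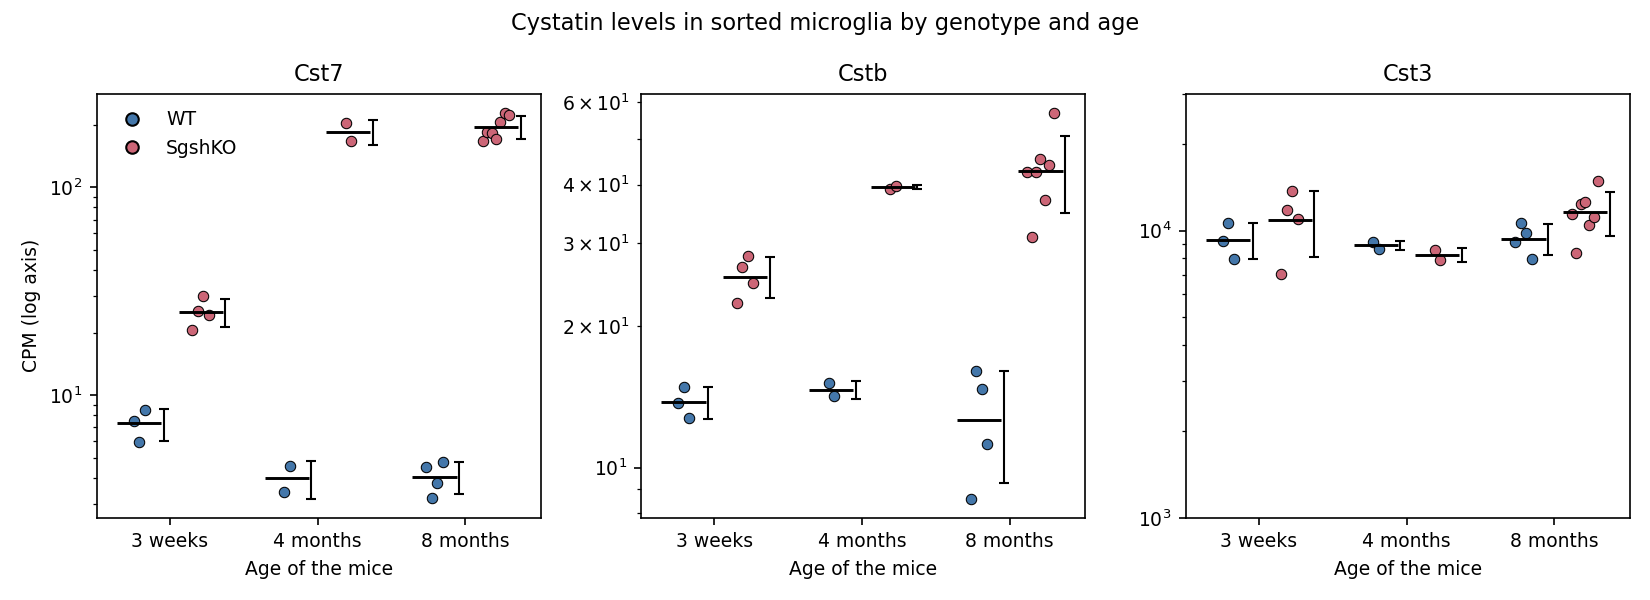
CPM of Cst7, Cstb and Cst3 (log axis) in the 22 age series libraries, in WT and SgshKO at 3 weeks, 4 months and 8 months; points are libraries, lines are group means and bars are SD. Cst7 lies between 3.20 and 8.49 CPM in WT and reaches 167 to 228 in SgshKO at the later ages, Cstb separates by genotype at each age over a smaller range, and Cst3 overlaps between genotypes at 3 weeks and 8 months.

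The ASO against Mitf gave the highest Cst7 among WT treatments, and the one against Tfe3 the next. Cst7 was at 10.5, 7.84, 7.76 and 9.68 CPM in the PBS libraries of grp 1 to 4 and at 7.25, 9.22, 24.1 and 9.03 in the ntc libraries, where grp is the number that the titles give each set of treated libraries. It was at 33.9, 26.0, 33.4 and 37.5 with the Mitf ASO, at 26.2, 19.97, 34.4 and 27.9 with the Tfe3 ASO, and at 21.1, 11.6, 12.9 and 17.8 with the Tfeb ASO. The Mitf ASO libraries lay above all ntc and PBS libraries. The Tfe3 ASO libraries lay above all PBS libraries and overlapped ntc through ntc replicate 3 alone, and each library of both treatments was above the ntc library of its own grp.

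From 12.4 ± 7.85 CPM (SD, n = 4) with ntc, Cst7 stood 2.74-fold higher at 32.7 ± 4.84 (n = 4) with the Mitf ASO (log2 1.45). Ordered by fold increase it stood at place 9 of 10277 genes, in a contrast with 11% of genes called. With the Tfe3 ASO it stood 2.25-fold higher at 27.1 ± 5.92 (n = 4; log2 1.17), place 12, with 2.16% of genes called. Both places and both shares describe the contrasts on which the genes were chosen. Without ntc replicate 3, the ntc library with the highest Cst7, the log2 differences were 1.91 and 1.64. Against PBS in place of ntc they were 1.87 and 1.58.

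The Tfeb ASO and PBS libraries were not part of the choice. The ntc libraries were, as the reference of the contrasts that chose the genes. The tests against ntc below are therefore not independent of the choice. With the Tfeb ASO, Cst7 was at 15.9 ± 4.39 CPM (n = 4), a log2 difference of 0.43 ± 0.25 from ntc that did not pass (adjusted p = 0.448, 0.778% of genes called), and it was above the ntc library in 3 of 4 grp. Without ntc replicate 3 the difference was 0.87 and was called (adjusted p = 0.036). That library was singled out after its Cst7, the highest with ntc, had been seen. Leaving it out raises the difference, so this call is a description only. Against PBS the difference was 0.84 (adjusted p = 0.0827). The 3 ASO contrasts share the ntc libraries. The ntc libraries differed from PBS (8.95 ± 1.37 CPM, n = 4) by 0.41 ± 0.26 on the log2 scale (adjusted p = 1). In this comparison edgeR's quasi-likelihood test called 0% of genes, 415 genes had an unadjusted p under 0.05, and DESeq2 called 2.

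In ntc replicate 3 the 17 listed markers of disease-associated microglia summed to 3778 CPM, against 3360, 2999 and 2915 in the other ntc libraries and 2832 to 3285 with PBS. Whether that state bears on its Cst7 was not tested. None of the neutrophil markers is listed in the WT ASO table, so their level in these libraries was not analysed here.

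**Figure D2:**
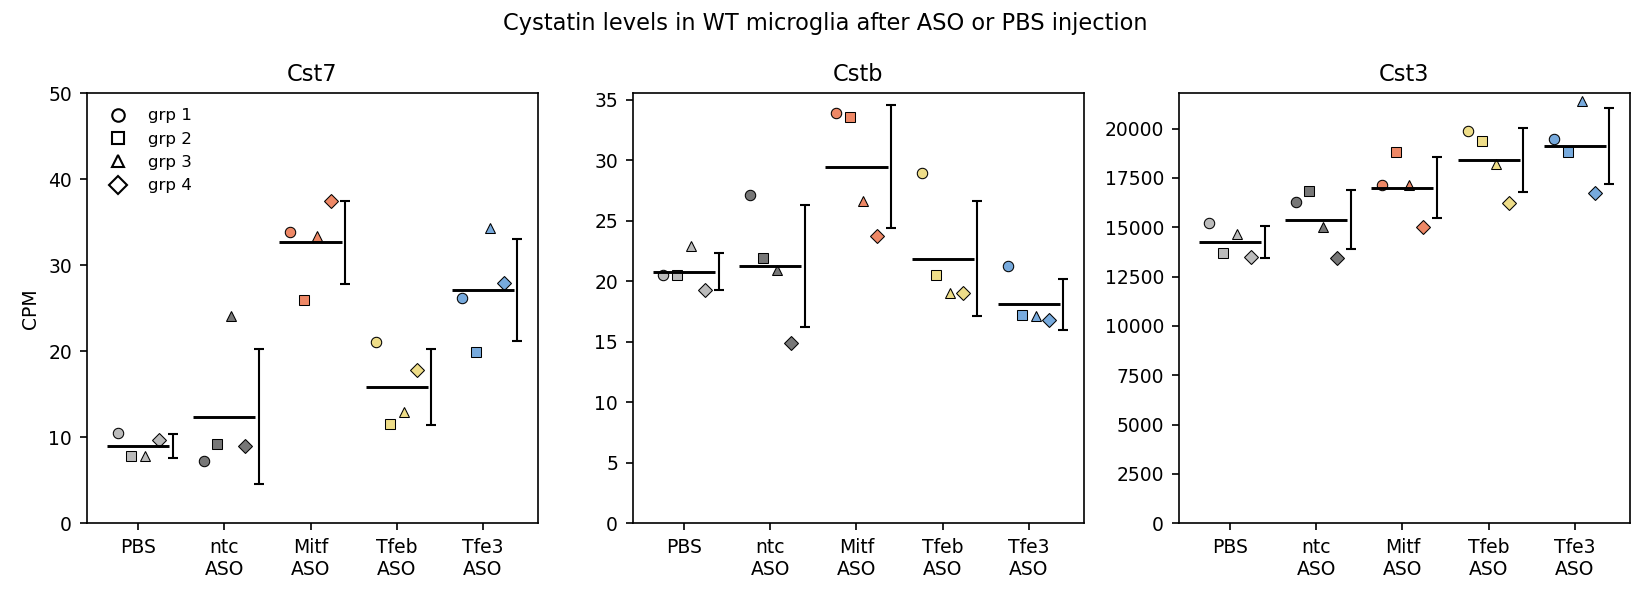
CPM of Cst7, Cstb and Cst3 in the 20 WT libraries by treatment (PBS, ntc, Mitf ASO, Tfeb ASO, Tfe3 ASO); symbols give the grp number, lines are means and bars are SD, n = 4 each. Cst7 of ntc replicate 3, at 24.1 CPM, stands apart from the other ntc libraries and within the range of the Tfe3 ASO, and Cst3 is lowest with PBS and highest with the Tfe3 ASO on average.

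In SgshKO mice the combination of Mitf and Tfe3 ASOs went with less Cst7. The 8 ntc libraries held 98.2 to 123 CPM (median 112) and the 8 combination libraries 78.5 to 91.5 (median 85.7), with no overlap. The mean went from 110.5 ± 8.01 to 85.1 ± 4.48 CPM (SD, n = 8 each), 1.30-fold lower (log2 -0.38 ± 0.05 SE, adjusted p = 0.000102, 9.33% of genes called). The log2 difference was -0.26 in grp 1 alone (4 against 4 libraries, adjusted p = 0.0771) and -0.49 in grp 2 alone (adjusted p = 0.000358). The WT and SgshKO ASO tables were normalized separately and used different agents, so the difference between their Cst7 responses was not tested. Summed over the 5 neutrophil markers in that table, ntc libraries held 1.03 to 516 CPM and combination libraries 0.996 to 329, and their part in the result was not tested.

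Cstb rose in SgshKO at each age, by less than Cst7. In WT it was at 13.7, 14.9 and 12.7 CPM at 3 weeks, 15.1 and 14.2 at 4 months, and 8.60, 16.1, 14.7 and 11.2 at 8 months. In SgshKO it was at 22.4, 26.8, 28.2 and 24.8 CPM at 3 weeks, 39.2 and 39.8 at 4 months, and between 30.9 and 56.9 with a median of 42.6 at 8 months. No SgshKO library overlapped a WT library of its age. How many of all genes separated in this way was not counted, here or for the other cystatins. At 4 months (n = 2 each) Cst3 separated too, in the other direction, and was not called (adjusted p = 0.784).

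The mean of Cstb went from 13.8 ± 1.07 (SD, n = 3) to 25.5 ± 2.52 CPM (n = 4) at 3 weeks (log2 0.89 ± 0.18, adjusted p = 0.0017). At 4 months it went from 14.7 ± 0.66 (n = 2) to 39.5 ± 0.40 (n = 2; log2 1.43 ± 0.24, adjusted p = 0.000125), and at 8 months from 12.6 ± 3.39 (n = 4) to 42.8 ± 7.97 (n = 7; log2 1.75 ± 0.16, adjusted p = 2.05e-09). In these comparisons 9.03%, 19.5% and 40.5% of all genes were called. The genotype effect at 8 months was larger than at 3 weeks by 0.86 ± 0.23 (adjusted p = 0.0192), and with WT 3-week replicate 2 left out it no longer passed (adjusted p = 0.0646). The other interactions were 0.55 ± 0.30 (4 months against 3 weeks, adjusted p = 0.381) and 0.31 ± 0.28 (8 against 4 months, adjusted p = 0.73).

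With age, Cstb rose within SgshKO by 0.63 ± 0.20 to 4 months (adjusted p = 0.0157) and 0.75 ± 0.15 to 8 months (adjusted p = 0.000375) on the log2 scale. The first of these was not called without either 4-month library (adjusted p = 0.0757 and 0.126). In WT the changes were 0.09 (adjusted p = 0.905) and -0.11 (adjusted p = 0.807). Without the 2 SgshKO 8-month libraries richest in neutrophil markers, the 8-month difference of Cstb between genotypes was 1.74 (adjusted p = 2.47e-08). The SgshKO libraries kept still held at least 405 CPM of those markers, against at most 3.26 in WT at 8 months. The part of neutrophils in the Cstb result was not tested.

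Cstb did not pass in the ASO comparisons tested in the design used here, which leave out the Mitf and Tfe3 ASOs in WT. It was at 20.5, 20.5, 22.9 and 19.3 CPM with PBS, 27.2, 21.95, 20.9 and 14.9 with ntc, and 33.9, 33.6, 26.6 and 23.7 with the Mitf ASO in grp 1 to 4. It was at 28.9, 20.5, 19.0 and 19.0 with the Tfeb ASO and 21.2, 17.2, 17.1 and 16.8 with the Tfe3 ASO. The Mitf ASO libraries overlapped ntc in range but were above the ntc library of the same grp in 4 of 4, and the Tfe3 ASO libraries were above it in 1 of 4. As a description, the log2 differences from ntc were 0.49 for the Mitf ASO and -0.21 for the Tfe3 ASO.

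For the Tfeb ASO the difference of Cstb from ntc was 0.06 ± 0.11 (adjusted p = 0.854), and between ntc (21.2 ± 5.03 CPM) and PBS (20.8 ± 1.52) it was -0.0036 (adjusted p = 1). In SgshKO the ntc libraries held 32.1 to 44.4 CPM (median 41.1) and the combination libraries 28.3 to 39.0 (median 34.9), with overlap. The log2 difference of -0.19 ± 0.07 did not pass (adjusted p = 0.0715), at -0.25 in grp 1 alone and -0.13 in grp 2 alone. It passed with a replicate block (adjusted p = 0.038), from the batch-corrected signal (0.0466), and without ntc replicate 1 or 4 of grp 2 or combination replicate 2 of grp 2 (0.0434, 0.0484 and 0.0406).

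Cst3 did not pass the genotype test at any age. It was at 9164.5, 10648 and 7994 CPM in WT and 7067, 11803, 13744 and 10950 in SgshKO at 3 weeks. At 4 months it was at 9111 and 8634 in WT against 8560 and 7894 in SgshKO, where all 4 values lay close together and SgshKO was the lower group without overlap. At 8 months it was at 9138, 10620, 9811 and 7954 in WT and between 8354 and 14898 with a median of 11390 in SgshKO, with overlap.

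The log2 differences of Cst3 between genotypes were 0.23 ± 0.17 (3 weeks, adjusted p = 0.525), -0.11 ± 0.22 (4 months, adjusted p = 0.784) and 0.30 ± 0.14 (8 months, adjusted p = 0.0843). The 8-month difference passed without SgshKO 8-month replicate 2 (0.34, adjusted p = 0.0394), and from TPM the 3 differences were 0.14, -0.20 and 0.15. The interactions were -0.34, 0.07 and 0.41 (adjusted p = 0.591, 0.901 and 0.583). Across age the changes were -0.06 and 0.02 in WT and -0.40 ± 0.19 and 0.09 in SgshKO, with adjusted p between 0.112 and 0.978. The SgshKO change to 4 months passed without 3-week replicate 1 (-0.56, adjusted p = 0.011). The spread among the 4 SgshKO libraries at 3 weeks, from 7067 to 13744 CPM, was wider than the difference between the genotype means at any age.

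In the WT ASO experiment the mean of Cst3 was above that of ntc with each of the 3 ASOs. The test passed for Tfeb, whose ASO libraries were outside the choice, although its ntc reference was not. With PBS it was at 15224, 13696, 14649 and 13504 CPM and with ntc at 16256, 16818, 15032 and 13456.5 in grp 1 to 4. With the Tfeb ASO it was at 19874, 19367, 18181.5 and 16242, above ntc in 4 of 4 grp although the ranges overlapped. The log2 difference was 0.26 ± 0.05 (adjusted p = 0.0237), and it no longer passed when ntc replicate 1, 3 or 4 or Tfeb ASO replicate 1, 2 or 4 was left out, with values of 0.23 to 0.27, or without grp in the model (adjusted p = 0.577). Against PBS the Tfeb ASO difference was 0.36 (adjusted p = 0.00058), while ntc against PBS gave 0.10 ± 0.05 (adjusted p = 1).

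As a description of the contrasts that chose the genes, Cst3 was at 17132, 18808, 17114 and 14992 CPM with the Mitf ASO (log2 0.15 from ntc). With the Tfe3 ASO it was at 19471.5, 18836, 21381 and 16719.5 (log2 0.31). Both were above the ntc library of the same grp in 4 of 4.

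In SgshKO the combination raised Cst3, opposite to Cst7. The ntc libraries held 4951 to 6092 CPM (median 5816) and the combination libraries 7386.5 to 9894 (median 9216), with a wide gap between the groups. The mean went from 5652 ± 405 to 9032 ± 823 CPM (SD, n = 8 each), 1.60-fold (log2 0.68 ± 0.06 SE, adjusted p = 1.03e-06), place 61 of 10589 genes by fold increase. The rise was 0.76 in grp 1 alone (adjusted p = 0.00548) and 0.60 in grp 2 alone (adjusted p = 0.000637).

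**Figure D3:**
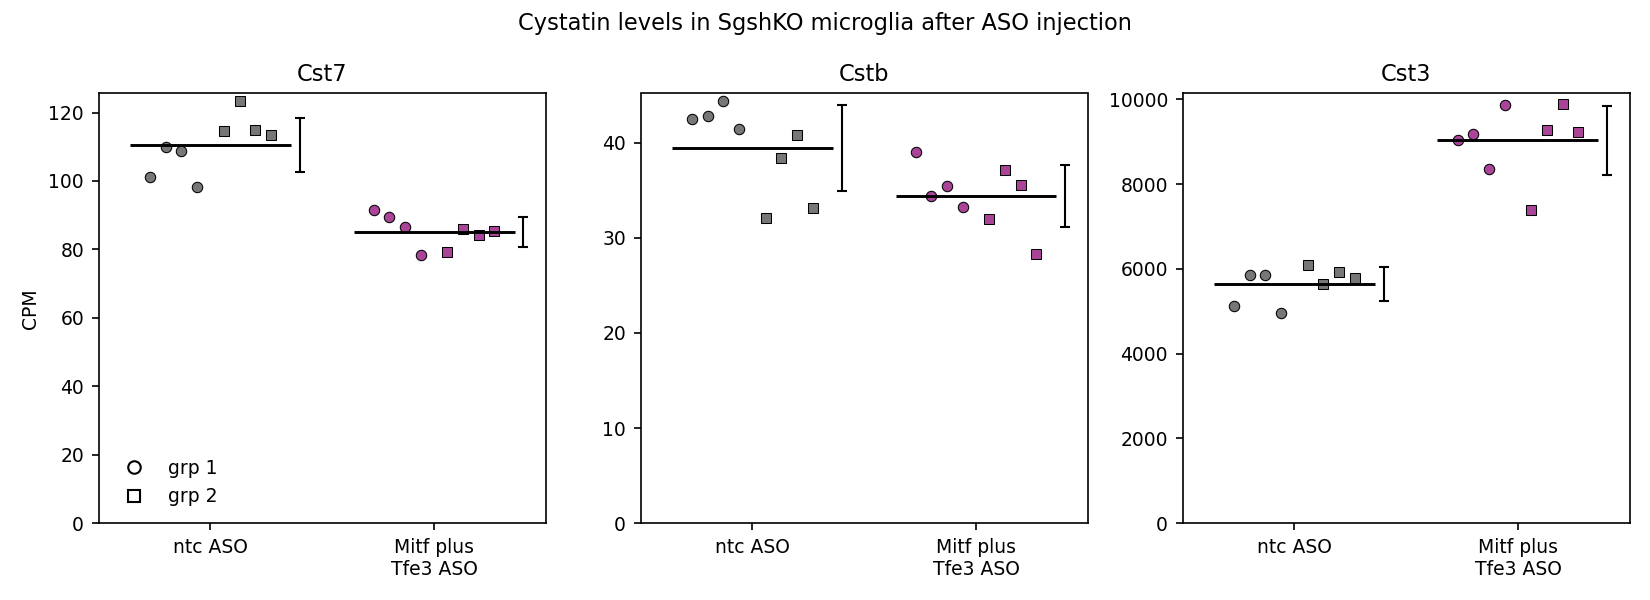
CPM of Cst7, Cstb and Cst3 in the 16 SgshKO libraries by treatment (ntc or the combination of Mitf and Tfe3 ASOs); symbols give grp 1 or 2, lines are means and bars are SD, n = 8 each. The groups do not overlap for Cst7, which is lower with the combination, or for Cst3, which is higher, and they overlap for Cstb.

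Levels of different genes were set side by side per transcript length, as the deposited TPM of the age series. Cst3 was at 13421 to 25671 TPM and ranked first or second in all 22 libraries, among the genes with a deposited TPM. Cstb was at 35.5, 38.4 and 33.1 TPM on average in WT at 3 weeks, 4 months and 8 months, and at 62.9, 97.4 and 101 in SgshKO. Cst7 was at 11.5, 6.39 and 6.50 TPM in WT and at 37.7, 278 and 282 in SgshKO.

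Thus the order of Cstb and Cst7 turned between ages in SgshKO. The ratio of Cst7 to Cstb in TPM was 0.328, 0.167 and 0.214 in WT and 0.598, 2.86 and 2.84 in SgshKO. Cst7 was the lower of the pair in each WT library and each 3-week SgshKO library, where the ratio reached at most 0.653, and the higher in each older SgshKO library, where it was at least 2.29. Cst3 remained above Cst7 in every library, by a mean ratio of 1632 to 2977 in the WT groups and of 531, 55.4 and 74.4 in SgshKO at the 3 ages.

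The cysteine proteases that cystatins can inhibit were described over a list of 11 genes. In SgshKO 4 were called higher and 0 lower at 3 weeks, 4 higher and 2 lower at 4 months, and 6 higher and 1 lower at 8 months, with median log2 fold changes of 0.12, 0.20 and 0.54 against -0.02, 0.02 and 0.02 over all genes. The shares of all genes called were 9.03%, 19.5% and 40.5%, and they are the background for each list below. Ctsb (cathepsin B) went from 2652 to 7260 CPM at 3 weeks and from 2459 to 9261 at 8 months (log2 1.91 ± 0.07, adjusted p = 9.78e-17). At 8 months Ctsl (cathepsin L) rose by 1.85 ± 0.15 (adjusted p = 3.67e-10) and Ctsz (cathepsin Z) by 1.71 ± 0.11 (adjusted p = 1.27e-11). The genotype effect was larger at 8 months than at 3 weeks for 5 of 11, among them Ctsl (1.15 ± 0.22) and Ctss (0.75 ± 0.09), with 9.25% of all genes called, and for 0 of 11 at 4 months against 3 weeks, with 2.52% called.

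Ctsc, which encodes cathepsin C, the protease that cystatin F is best known to inhibit, differed by 0.44 ± 0.10 at 8 months (adjusted p = 0.00091) and did not pass at the other ages. Its CPM was 346 ± 56.0 in WT and 468 ± 47.5 in SgshKO at 8 months, where the log2 difference of Cst7 was 5.61. Lgmn (legumain, an asparaginyl endopeptidase that cystatin C also inhibits) was lower in SgshKO, by -0.46 at 4 months (adjusted p = 0.000745) and -0.20 at 8 months (adjusted p = 0.00651). The other gene called lower at 4 months, Ctsw, had 11 counts in all in WT and 0 in SgshKO at that age, at the limit of counting.

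With the Mitf ASO 5 of the 9 cysteine proteases listed in the WT ASO table were called higher and 0 lower (median log2 0.18), with 11% of all genes called. These were Ctsb (0.82 ± 0.04, adjusted p = 2.37e-09), Ctsz (0.62 ± 0.07), Ctsl (0.55 ± 0.05), Ctss (0.36 ± 0.04) and Ctsc (0.18 ± 0.05). The Tfe3 ASO and the Tfeb ASO each raised 2 of 9, Ctsb (0.40 and 0.28) and Ctss (0.21 and 0.24), with 2.16% and 0.778% of all genes called, while 0 of 9 were called between ntc and PBS. The Tfeb ASO count went from 0 with no replicate block to 5 against PBS, was 4 with DESeq2 and from the signal, and was 1 without ntc replicate 1 or Tfeb ASO replicate 1, and the Tfe3 ASO count was 1 with no replicate block. In SgshKO the combination raised Ctss (0.47 ± 0.05, adjusted p = 1.14e-05) and Ctsh (0.18 ± 0.03, adjusted p = 0.00404) and lowered none of 9, with 9.33% of all genes called. Ctss, which encodes cathepsin S, a lysosomal protease of antigen processing, thus rose in the comparison in which Cst3 rose and Cst7 fell.

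**Figure D4:**
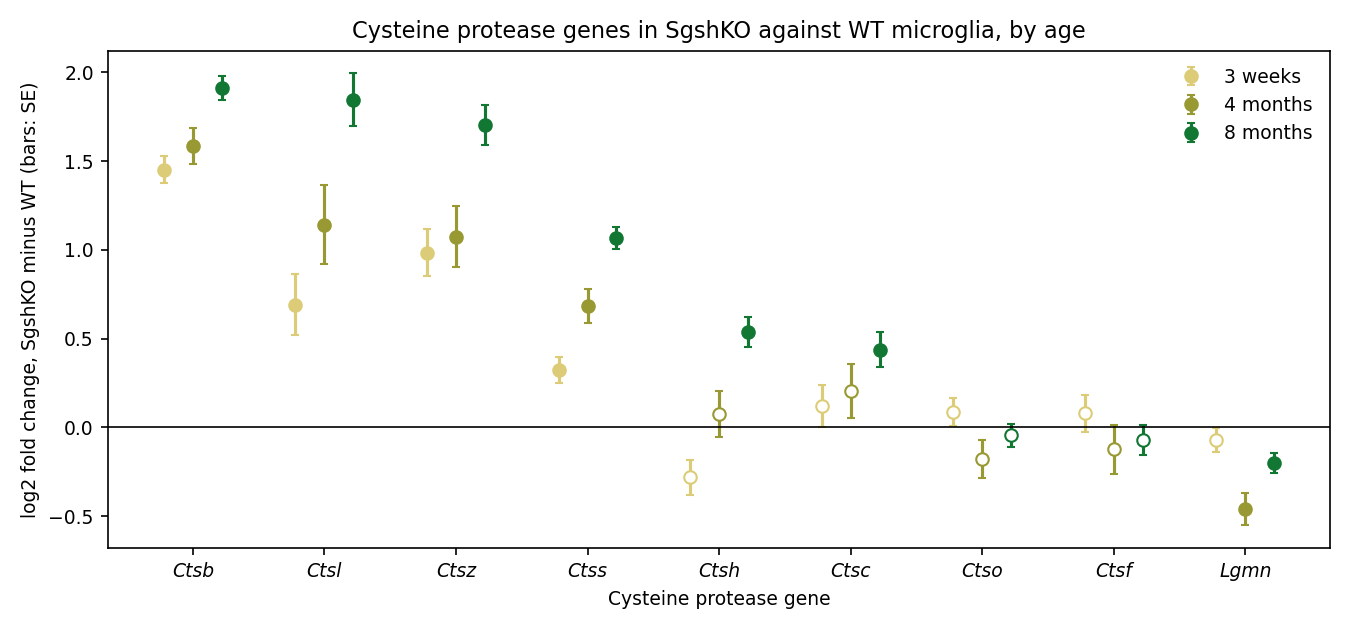
Log2 fold change of SgshKO against WT at 3 weeks, 4 months and 8 months for 9 of the 11 cysteine proteases. Ctsk and Ctsw are left out, and the 3 cystatins are not drawn. Bars are SE and filled symbols passed an adjusted p of 0.05. Ctsb, at 1.45, 1.59 and 1.91, is the protease with the largest rise at each age. For comparison, the log2 fold change of Cst7, given in the text, was 1.77, 5.49 and 5.61 at the 3 ages.

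The aspartic and serine cathepsins on a list of 4 genes rose as well, with 2, 3 and 3 called higher at the 3 ages (9.03%, 19.5% and 40.5% of all genes called). At 8 months Ctsd (cathepsin D) rose by 1.26 ± 0.07, Ctsa (cathepsin A) by 0.96 ± 0.06 and Ctse (cathepsin E) by 3.36 ± 0.56, the last from 1.24 to 13.7 CPM. With the Mitf ASO both listed members rose, Ctsa by 0.62 ± 0.04 and Ctsd by 0.50 ± 0.04, with 11% of all genes called. With the combination in SgshKO 0 of 3 were called, with 9.33% of all genes called.

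Inhibitors of other proteases were mixed, with 2, 4 and 5 of 9 tested genes called higher and 1 lower at each age, beside the same shares of all genes. Serpinf1, which encodes the secreted factor PEDF, was the 1 called lower, from 85.4 to 13.4 CPM at 8 months (log2 -2.68 ± 0.12, adjusted p = 6.77e-15), and was also lower with the Mitf ASO (-0.63 ± 0.07). Serpinb6a, a cytosolic serpin, rose by 2.62 ± 0.25 at 4 months and 2.60 ± 0.16 at 8 months. Serpine2, an inhibitor of thrombin, rose by 0.77 ± 0.08 at 3 weeks. Serpinb1a and Slpi, inhibitors of neutrophil proteases, had almost no counts in WT and were at 55.7 and 4.42 CPM in SgshKO at 4 months and 9.71 and 2.05 at 8 months, the groups in which neutrophil markers were high.

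Cst7 belongs among the markers of disease-associated microglia, and the 21 other markers on that list were called higher in 14, 18 and 20 cases at the 3 ages, with 2, 0 and 0 lower (median log2 0.98, 3.15 and 2.87). At 8 months the largest were Gpnmb (5.84), Spp1 (5.72) and Clec7a (5.61), close to the 5.61 of Cst7. With the Mitf ASO 10 of 17 were called higher and 0 lower, led by Itgax (1.04), Cd63 (0.98) and Axl (0.85). With the Tfe3 and Tfeb ASOs 4 and 1 of 17 were called higher. With the Mitf, Tfe3 and Tfeb ASOs, 11%, 2.16% and 0.778% of all genes were called. With the combination in SgshKO 12 of 20 were called lower and 2 higher (median -0.31), with 9.33% of all genes called. Among those lower were Fabp5 (-1.27), Gpnmb (-0.75) and Itgax (-0.64 ± 0.04). Of 13 homeostatic markers, 11 were called lower in SgshKO at 8 months, such as Selplg (-1.21), Tmem119 (-1.02) and P2ry12 (-0.79). 1 of them, Fcrls (0.35), was called higher, with 40.5% of all genes called. Of the same 13, 4 were called higher and 1 lower with the combination, with 9.33% of all genes called.

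Other genes of the cystatin superfamily gave almost no signal. Of 31 such genes, 21 are listed in the age series table and 0 in the ASO tables, and their summed level was at most 6.64 CPM in any library. The counts over all 22 libraries were 341 for Kng2, 121 for Ahsg, 73 for Stfa2l1, 25 each for Gm5483 and Kng1, 23 for Cst6, 20 for Hrg and 17 for Fetub. Stfa1, Csta1, Cst10, Stfa3, Cst12 and Stfa2 had 10, 7, 5, 4, 2 and 1, and Cst8, Cst9, Cst11, Cst13, Cstl1, BC100530 and BC117090 had 0.

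Between genotypes, Stfa2l1, a stefin A gene, was the 1 of 3 tested that was called, higher in SgshKO at 8 months (adjusted p = 0.0322), where 40.5% of all genes were called. Within SgshKO, from 3 weeks to 8 months, it was called higher (adjusted p = 0.0424) and Ahsg, with 62 counts at 3 weeks and 0 at 8 months, lower (adjusted p = 0.0151). Its 73 counts came from 6 libraries, 62 of them in SgshKO at 8 months, 10 in SgshKO at 4 months and 1 in WT at 4 months, the SgshKO groups being those with high neutrophil marker sums. The stefin A genes are near-identical copies, so the split of reads among them is uncertain.

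Genes whose log2 CPM followed each cystatin most closely were ranked by Pearson's r over libraries. These libraries share their groups, so each r is followed by its value after the group means were removed. Over the 22 age series libraries Cst7 was nearest to Eef1a1 (0.988, and 0.43 within groups), Myo5a (0.988, 0.19), Pkm (0.985, 0.28), Aplp2 (0.984, 0.26) and Hpse (0.983, 0.01), so the likeness lay mostly between groups. Cstb was nearest to Aldoa (0.984, 0.82), P3h3 (0.976, 0.69), Akr1a1 (0.972, 0.63), Got1 (0.971, 0.60) and Slc39a4 (0.971, 0.74). Cst3 was nearest to Brms1 (0.898, 0.92), Fkbp8 (0.896, 0.90), Cope (0.895, 0.88), Tmem50a (0.881, 0.84) and Rgs10 (0.875, 0.93), and its likeness was as strong within groups.

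In the WT ASO table (20 libraries, grp means removed) Cst7 was nearest to Chst2 (0.979, 0.91 within treatments), Fam20c (0.95, 0.83), Ctsd (0.928, 0.46), Ly9 (0.922, 0.56) and Pkm (0.92, 0.64). Among the genes nearest to Cstb were Gnpda1 (0.939, 0.81), Dnase2a (0.917, 0.70), Atp6v1b2 (0.914, 0.66) and Vps29 (0.895, 0.60). Cst3 was nearest to Ppib (0.931, 0.86), Ergic3 (0.93, 0.78), Hmgn1 (0.922, 0.74), Ubb (0.917, 0.87) and Rpn1 (0.914, 0.48). In the SgshKO ASO table (16 libraries) Cst7 was nearest to Il12rb2 (0.953, 0.68), Fabp5 (0.946, 0.69), Hpse (0.94, 0.65), Tfe3 (0.925, 0.33) and Naglu (0.918, 0.53), of which Tfe3 is a target of the ASOs that separate the groups. There Cst3 was nearest to Ctss (0.967, 0.72), Arhgdib (0.967, 0.70), H2-DMa (0.963, 0.55), Snn (0.949, 0.65) and Ly6e (0.947, 0.43). Cstb was nearest to Trim68 (0.877, 0.81), Parn (0.847, 0.74), Ddb1 (0.838, 0.79), Eef1a1 (0.825, 0.69) and Wdr36 (0.817, 0.67).

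Among themselves, Cst7 and Cstb had an r of 0.942 over the age series but -0.16 within groups, Cst3 and Cstb 0.506 and 0.72, and Cst7 and Cst3 0.343 and 0.09. In the SgshKO ASO table Cst7 and Cst3 had an r of -0.815 over all libraries and 0.43 within treatments. These values describe the libraries and carry no test.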

How the data were processed

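Sorted mouse microglia were profiled by polyA RNA-seq in 58 libraries of 13 groups. The authors deposited 3 tables of raw counts per gene, with TPM for the age series and a batch-corrected signal for the ASO libraries as companion tables. Per the submitters' processing notes, reads were processed against mm10 with tools that include STAR 2.5.3a, kallisto 0.44.0, HOMER 4.11, DESeq2 1.36.0 and R 4.2.3, and which tool counted reads, and with what strand setting, is not given in the sources used here. The libraries mark strand with dUTP, per the labels' protocols. RNA was isolated with 1 of 2 kits and sequenced on 1 of 2 instruments, which are not assigned to samples.

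The deposited counts were analysed in R 4.3.3 with edgeR 4.0.16: TMM scaling, a minimum count of 10 (filterByExpr), a quasi-likelihood fit of all libraries of a table, Benjamini-Hochberg adjustment over all genes tested and a threshold of 0.05. The ASO models held grp, the number in the titles, because the authors' deposited signal is batch-corrected. DESeq2 1.42.0 on counts, limma 3.58.1 on log2(TPM + 1) and on log2(signal + 1), other filters, models without or with a replicate block, PBS as the reference and the removal of each library in turn were the alternatives. Figures and sequence searches used Python 3.11.15. The scripts were tested on simulated counts with known changes. Depth was 8191508 to 30431437 counts per library, and replicates of a group had r of 0.936 to 0.9906 between their log2 CPM. The deposited TPM summed to 546451 to 570026 per library. No library of the age series had a count for 3898 of 24940 genes.

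Same-numbered replicates were compared by the correlation of their deviations from group means. It was -0.171 to 0.115 at 3 weeks (1 of 3 pairs over 0.1), 0.0287 at 4 months, and -0.06 to 0.0548 at 8 months (0 of 4), so numbers were not taken to pair the age series. It was -0.0333 to 0.64 in the WT ASO table (38 of 40 over 0.1).

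The 3 cystatins and all gene lists were chosen with earlier results of these data known. Genes named beyond them are other cystatins with counts, up to 3 called genes per list and comparison with the largest change, the targeted genes, the 5 genes most like each cystatin, and a few list members (Ctsc, Ctsh, Ctss, Lgmn, Ctsw, Serpine2, Serpinb6a) chosen after their values were seen. Likeness used log2 CPM with a prior count of 2, and 1 gene that this rule names is not reported here.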

Additional observations from a re-analysis of the deposited data

Results flagged for a closer look

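The check covered 30 sets of values, each of 1 cystatin in 1 group of at least 4 libraries. Of these, 3 held a library far from the others of its group, where chance alone marks about 1 in 20. The sets share libraries between genes, so that rate is only a rough guide. Cst7 in WT ntc replicate 3 was at 24.1 CPM, with the other ntc libraries at 7.25 to 9.22. Cstb in WT Tfeb ASO replicate 1 was at 28.9 CPM and in WT Tfe3 ASO replicate 1 at 21.2 CPM, above the other libraries of their treatments. Both are of grp 1, in which the ntc and Mitf ASO libraries also had the highest Cstb of their treatments, at 27.2 and 33.9 CPM. The PBS library of grp 1 did not, at 20.5 CPM against 22.9 in PBS replicate 3.

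The genotype effect differed between ages, by an interaction test, for Cst7 at 4 months against 3 weeks (log2 3.72) and at 8 months against 3 weeks (3.84), and for Cstb at 8 months against 3 weeks (0.86).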

How the results depend on the processing

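Over the 39 results on the cystatins that have a test, 618 recomputed values kept their direction and their side of the threshold, 20 lost the call, 9 gained it and 25 changed sign. The cause of each change was not tested. The rise of Cst7 in SgshKO, its growth from 3 weeks to 4 and 8 months, its fall with the combination over all 16 libraries, and the rise of Cst3 with the combination kept their calls when any 1 library was left out. With no filter on low counts, Cst3 at 8 months passed (log2 0.30, adjusted p = 0.0419). With only the compared groups in the model, the WT falls of Cst7 to 4 and 8 months gave -0.83 each and did not pass, and Cstb in ntc against PBS gave 0.0043. From TPM, the Cst7 genotype effect at 8 against 4 months was -0.0029 and, with a pseudocount of 0.1, -0.0050. From the batch-corrected signal, Cst3 with the Tfeb ASO gave 0.24 (adjusted p = 0.0543), Cstb with the combination -0.20 (adjusted p = 0.0466), and Cstb in ntc against PBS 3e-04. With grp taken from the column names, where PBS replicate 4 is in grp 3, Cstb in ntc against PBS gave 0.054. In grp 1 alone, Cst7 with the combination gave -0.26 (adjusted p = 0.0771).

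A replicate block was also tried in the age series, where the numbers were not shown to pair libraries. The Cstb genotype effect at 8 months against 3 weeks was then 0.79 (adjusted p = 0.0543) and that of Cst7 at 8 against 4 months -0.0202. The WT fall of Cst7 to 4 months was -0.76 (adjusted p = 0.0578). With such a block in the SgshKO ASO table, Cstb with the combination was -0.19 (adjusted p = 0.038). With no replicate block, that is without grp, Cst3 with the Tfeb ASO was 0.26 (adjusted p = 0.577) and Cstb in ntc against PBS 0.0258. In the SgshKO ASO table same-numbered libraries correlated at 0.088 to 0.612 in grp 1 and 0.0839 to 0.156 in grp 2.

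Leaving out each library in turn gave these lowest and highest log2 values. Cst7 ranged from -1.09 to -0.67 for WT 4 months against 3 weeks, from -0.17 to 0.29 for the genotype effect at 8 against 4 months, from -0.043 to 0.64 for ntc against PBS, and from 0.18 to 0.87 for the Tfeb ASO. Cstb ranged from 0.71 to 0.99 for the genotype effect at 8 months against 3 weeks, from 0.57 to 0.68 for SgshKO 4 months against 3 weeks, from -0.24 to 0.033 for WT 8 months against 3 weeks, from -0.11 to 0.094 for ntc against PBS, from -0.040 to 0.11 for the Tfeb ASO and from -0.22 to -0.17 for the combination. Cst3 ranged from 0.10 to 0.40, from -0.20 to -0.058 and from 0.20 to 0.36 between genotypes at 3 weeks, 4 months and 8 months, from -0.10 to 0.19 for the genotype effect at 8 months against 3 weeks, from -0.16 to 0.048 and -0.071 to 0.13 for WT 4 and 8 months against 3 weeks, from -0.56 to -0.27 and -0.076 to 0.22 for the same in SgshKO, and from 0.23 to 0.29 for the Tfeb ASO. At 4 months, leaving out a library left 1 in its group, assumed to vary like the other groups.

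Numbers of genes called moved more. The genotype effect at 4 months against 3 weeks called 361 genes, 692 with DESeq2 and 683 from TPM, and that at 8 against 4 months 56, 168 with DESeq2, 131 with no filter, 86 from TPM, 22 with only the compared groups and 21 with a replicate block. WT 4 months against 3 weeks called 746, and 1518 with only these groups. The Mitf ASO called 1128, 211 with no replicate block and 1860 against PBS. The Tfe3 ASO called 222, 403 with DESeq2, 29 with no replicate block and 1001 against PBS. The Tfeb ASO called 80, 213 with DESeq2, 145 from the signal, 450 with only these groups, 9 with no replicate block and 352 against PBS. The combination called 988, 452 without grp, 192 in grp 1 alone and 430 in grp 2 alone. Leaving out 1 library moved these counts too. They fell to between 100 and 105 for the genotype effect at 4 months against 3 weeks without WT 4-month replicate 1, WT 4-month replicate 2 or SgshKO 4-month replicate 2, to 232 without WT 3-week replicate 1, and rose to 699 without SgshKO 4-month replicate 1. At 8 against 4 months they were 4, 15 and 20 without those first 3 libraries, 125 when SgshKO 4-month replicate 1 was left out, and 91 when it was 8-month replicate 2 of SgshKO. SgshKO against WT at 4 months called 2794, and 1441 to 2708 with 1 library left out, SgshKO 4 months against 3 weeks 4686 and 2641 to 4480, WT 4 months against 3 weeks 190 to 532 and WT 8 months against 3 weeks 1095 and 664 to 1156. The Mitf, Tfe3 and Tfeb ASOs called 621 to 970, 79 to 140 and 24 to 63. Counts of 29 to 152 limit what can be said of Cst7 in WT libraries.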
